A study of Drosophila melanogaster with 96 samples.

Results

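The cryptochrome and photolyase genes of Drosophila melanogaster are cry, phr and phr6-4. They were taken by their FlyBase symbols and not by a threshold on a measured value, although earlier results of these data were known. All 3 were found among the 17610 genes of the deposited table, and all 3 were among the 10702 genes with enough counts to be tested. Positions are from the BDGP6.54 annotation, since the authors' own build is not given in the sources used here. cry (FBgn0025680) lies on chromosome 3R from 19212154 to 19215442 on the plus strand. phr (FBgn0003082) lies on 2R from 7825289 to 7827319 on the plus strand, and phr6-4 (FBgn0016054) on 2L from 20643351 to 20645791 on the minus strand. Each is a protein-coding gene.

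RNA-seq of polyadenylated transcripts was performed on heads of adult ISO1 flies labelled male; ISO1 is an inbred laboratory strain, and the labels name no transgene or drug in any group. The groups were constant darkness at 18 °C, at 25 °C or at 29 °C, and a 25 °C group in cycles of 12 h light and 12 h dark. On days 4 and 5, heads were collected at hours 0, 4, 8, 12, 16 and 20 in duplicate, so each group has 24 libraries and the series 96. The labels do not say whether hour 0 is the time of lights-on, from what event days are counted, or how old the flies were, and they name no batch, so a batch that followed a condition cannot be told apart from it. The design text calls the replicates biological but does not say whether each pooled separate flies, so the p-values measure the spread between these libraries, which may in part be technical.

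Cryptochrome and photolyases are flavoproteins of a single family that absorb blue light. The photolyases use that light to split lesions that ultraviolet radiation makes in DNA: phr encodes the enzyme for cyclobutane pyrimidine dimers, and phr6-4 the enzyme for pyrimidine-pyrimidone photoproducts. Fly CRY has no known role in such repair. It is the photoreceptor through which light resets clock neurons: activated CRY binds TIM, and both proteins are then degraded. In the compound eye and in peripheral clocks, CRY is also known as a component of the oscillator.

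Libraries held between 17.3 and 34.7 M counts (1 M is 1000000), with a median of 21.1 M. Levels are given as CPM, counts scaled to 1000000 per library with TMM factors, and 1 CPM stood for 21.1 counts in a library of median depth. Per kilobase of annotated exon, cry was the most abundant of the 3 in darkness at 25 °C, with a level of 77.5 CPM per kb against 18.5 for phr and 0.84 for phr6-4. Over all 96 libraries, counts of phr6-4 ran from 14 to 78 per library. By condition, counting error alone gives a coefficient of variation of 14.7% to 17.8% at these counts, beside 17.2% to 25.7% observed. The observed spread was thus larger than counting error in each condition, and with it small differences of phr6-4 were not detectable. The lower coefficients cover counting error alone, since the labels name no molecular identifiers that would mark PCR copies.

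Markers of the head were present and those of reproductive organs were nearly absent. The summed level of 4 testis markers reached at most 2.69 CPM, that of 3 accessory gland markers 0.226 CPM and that of 3 ovary markers 0.225 CPM. Both male dosage compensation RNAs, roX1 and roX2, were detected, with a lowest sum of 285.8 CPM in any library. The 6 photoreceptor markers summed to medians of 53914.5 CPM at 18 °C, 69021.7 CPM at 25 °C in darkness, 68879.5 CPM at 29 °C and 45128.9 CPM in the light-dark cycle.

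The cry transcript rose and fell once per day in the light-dark cycle, with its highest level at hour 4 and its lowest at hour 16. At hour 4 the 4 libraries held 225.6, 232.9, 235.7 and 238.3 CPM. At hour 16 they held 66.4, 72.9, 75.5 and 76.5 CPM. The libraries at hour 4 thus lay far above those at hour 16, with means of 233 ± 5.48 and 72.8 ± 4.55 CPM (SD, n = 4 each) and a ratio of 3.2. The other hours filled in a smooth course. The mean was 170 ± 6.59 CPM at hour 0, 187 ± 8.28 CPM at hour 8, 132 ± 5.55 CPM at hour 12 and 80.8 ± 6.41 CPM at hour 20 (SD, n = 4 each). Days 4 and 5 gave similar courses, with means of 231 and 236 CPM at hour 4 and of 70.9 and 74.7 CPM at hour 16.

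**Figure D1:**
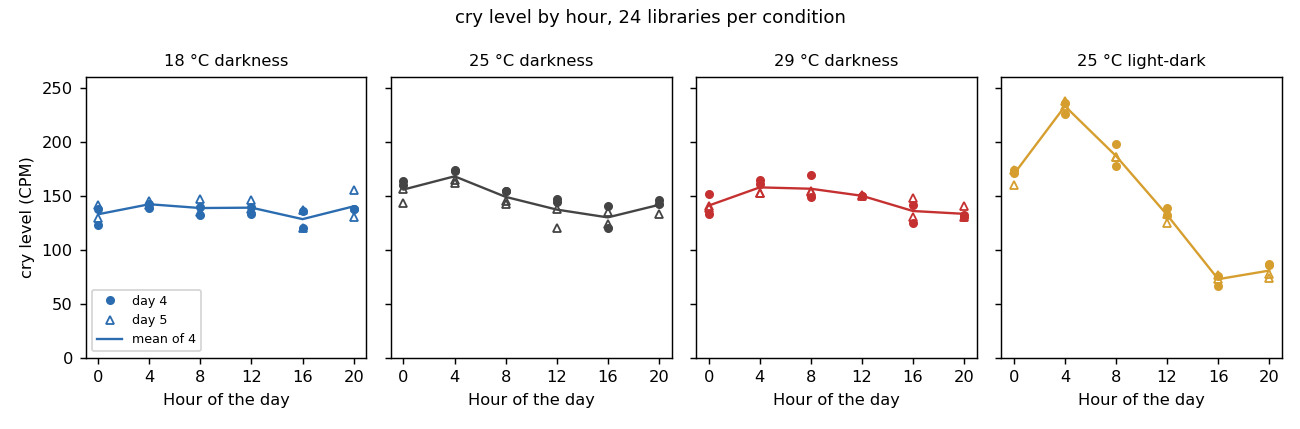
Level of cry in CPM against the hour of the day in the 4 conditions; each point is a library, filled for day 4 and open for day 5, and the lines join means of 4 libraries. In the light-dark cycle hour means run from 72.8 to 233 CPM, and in darkness from 128 to 168 CPM.

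A 24 h curve fitted in edgeR to the light-dark libraries gave cry an amplitude of 0.86 ± 0.03 (SE; log2 distance from mean to peak), a trough-to-peak change of 3.28-fold and a peak at hour 5.11 ± 0.127 (SE). The rhythm passed the quasi-likelihood test with a Benjamini-Hochberg adjusted p of 8.43e-41, and 14.2% of all tested genes passed it too. Among the 10702 genes, cry ranked 62 by amplitude, beside a median amplitude of 0.08 over all genes. No daily curve of a photolyase was called in the same libraries. The amplitude of phr was 0.02 ± 0.03 with an adjusted p of 0.932, and that of phr6-4 was 0.15 ± 0.10 with an adjusted p of 0.582 in edgeR's test.

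In constant darkness the swing of cry was much smaller. At 25 °C the hours with the highest and lowest means were again 4 and 16. The 4 libraries of hour 4 held 161.6, 164.6, 172.6 and 173.7 CPM, and those of hour 16 held 119.8, 124.2, 135.2 and 141 CPM. The hour means ran from 130 ± 9.74 to 168 ± 5.93 CPM (SD, n = 4), a ratio of 1.29. The fitted amplitude was 0.17 ± 0.03 (SE) with a peak at hour 3.28 ± 0.655, and the edgeR adjusted p was 0.000451, where 0.439% of all genes were called. This call was lost when either replicate was left out, with adjusted p of 0.562 without replicate 1 and 0.236 without replicate 2 in edgeR, while the amplitude stayed at 0.15 and 0.19.

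At 29 °C the hour means of cry lay between 133 and 158 CPM, and the amplitude was 0.13 ± 0.03 with a fitted peak at hour 6.96 ± 0.833. The edgeR adjusted p of 0.0568 missed the threshold of 0.05, which 0.14% of all genes passed. DESeq2 gave cry an adjusted p of 0.0274 for the same curve. Within edgeR the adjusted p was 0.0333 when the model held the libraries of 29 °C alone and 0.00169 with hour as a factor. The curve was not called when either replicate was left out. In edgeR the adjusted p was 0.999 without replicate 1 and 0.515 without replicate 2, while the amplitude stayed at 0.13. This call thus depends on the model and the libraries as well as on the test. At 18 °C the hour means spanned 128 to 142 CPM, the amplitude was 0.04 ± 0.03, and the edgeR adjusted p was 0.945, with 0.196% of all genes called. No member had an unadjusted p under 0.05 at 18 °C, and DESeq2 called 0 of the 3 there.

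No daily curve of a photolyase passed the test in darkness. Amplitudes of phr were between 0.0078 and 0.03 in the 3 dark conditions, and those of phr6-4 between 0.05 and 0.18, with edgeR adjusted p of 0.789 or more for each. For phr the hour means at 25 °C stayed within 35.4 and 37.0 CPM, with a highest-to-lowest ratio of 1.04, while 2 replicates of a time point differed by a median of 0.16 (log2). For phr6-4 at 25 °C that median replicate difference was 0.37 (log2).

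The curve of cry differed between light-dark and dark libraries at 25 °C. The difference vector between the 2 curves had a size of 0.71 ± 0.04 (log2, SE) and an edgeR adjusted p of 1.51e-24, and 5.26% of all genes were called in this comparison. The same difference for phr was 0.02 ± 0.04 with an adjusted p of 0.991, and for phr6-4 it was 0.29 ± 0.13 with an adjusted p of 0.491. Between dark conditions, no member's curve was called different. For cry the size was 0.14 ± 0.04 between 18 and 25 °C (unadjusted p = 0.00482 and adjusted p = 0.691, with 0.0934% of all genes called), 0.14 ± 0.04 between 29 and 25 °C (unadjusted p = 0.00325 and adjusted p of 1, with 0% called) and 0.10 ± 0.04 between 29 and 18 °C (adjusted p of 1, with 0.121% called). DESeq2 called 0 of the 3 members in each of these comparisons between dark conditions.

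Hour by hour, light-dark and dark libraries at 25 °C were told apart for cry at 4 of the 6 hours. In the light-dark cycle cry was higher by 0.47 ± 0.05 (log2, SE; 1.39-fold) at hour 4, with an edgeR adjusted p of 5.32e-10 and 2.89% of all genes called. It was higher by 0.33 ± 0.05 at hour 8, with an adjusted p of 1.9e-05 and 2.78% called. It was lower at hour 16, by a log2 difference of -0.84 ± 0.06 (0.56-fold), with an adjusted p of 9.4e-21 and 4.75% called. It was lower at hour 20 as well, by -0.81 ± 0.05, with an adjusted p of 1.36e-19 and 6.56% called. At hour 8 the light-dark libraries held 177.7 to 197.8 CPM and the dark libraries 142.9 to 154.2 CPM, and at hour 20 they held 73.6 to 86.7 CPM and 132.9 to 146.5 CPM. At each of the 4 called hours the 4 libraries of one condition lay entirely above the 4 of the other, as they did for 10.5%, 7.48%, 6% and 13.9% of all genes at hours 4, 8, 16 and 20.

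At hours 0 and 12 the cry libraries of the 2 conditions overlapped. The differences were 0.13 ± 0.05 (log2, SE) at hour 0 and -0.05 ± 0.05 at hour 12. The edgeR adjusted p were 0.397 and 0.771, where 1.16% and 5.08% of all genes were called. For cry at hour 0 the unadjusted edgeR p was 0.0213. The call at hour 8 was lost without replicate 2, with an edgeR adjusted p of 0.0818 and a difference in the same direction. phr and phr6-4 were called at none of the 6 hours, in edgeR or in DESeq2, and neither had an unadjusted p under 0.05. The 95% intervals of the difference ran from -0.26 to 0.11 for phr and from -0.89 to 0.73 for phr6-4 over the 6 hours. phr6-4 libraries did not overlap at hour 4, as for 10.5% of all genes at that hour. The light-dark libraries held 1.33 to 1.75 CPM of phr6-4 and the dark libraries 1.87 to 2.41 CPM, but its edgeR adjusted p there was 0.464.

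**Figure D2:**
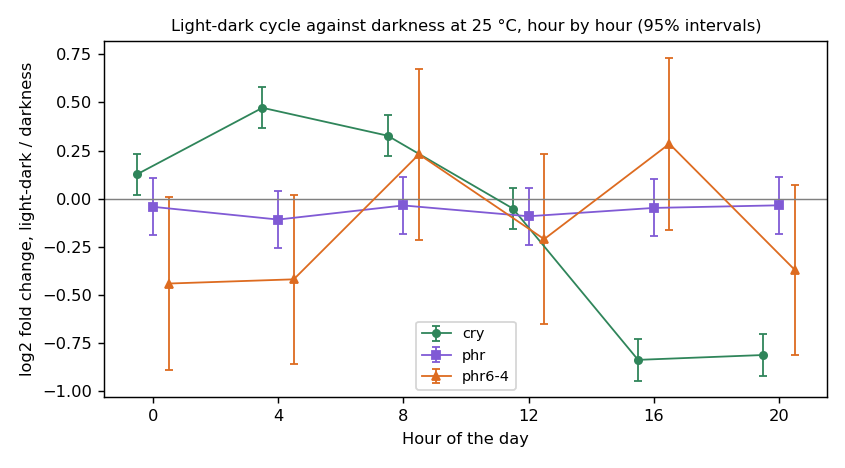
Log2 difference between light-dark and constant darkness at 25 °C for each hour and each of the 3 genes, with bars for 95% intervals from the SE. For cry the points run from 0.47 at hour 4 to -0.84 at hour 16, while those of phr stay between -0.11 and -0.03.

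The daily mean level of cry was nearly the same in light and darkness on the linear scale and lower on the log scale. Over 24 libraries each, cry averaged 146 ± 58.7 CPM in the light-dark cycle, from 66.4 through a median of 149.6 to 238.3 CPM. In darkness at 25 °C it averaged 147 ± 14.8 CPM, from 119.8 through 144.9 to 173.7 CPM. The dark range lay inside the light-dark range. Geometric means were 133.8 and 146.3 CPM, and edgeR's log-scale fit gave a difference of -0.12 ± 0.03 (SE) with an adjusted p of 0.000864. Of the 3 genes, 1 was called, beside 22.8% of all genes. Without replicate 2 the adjusted p was 0.14. phr differed by -0.06 ± 0.03 and phr6-4 by -0.16 ± 0.09 between these groups, with edgeR adjusted p of 0.156 and 0.229.

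Between 18 and 25 °C in darkness, the mean differed by -0.47 for phr, -0.37 for phr6-4 and -0.10 for cry on the log2 scale. phr, the gene of the pyrimidine-dimer photolyase, was lower at the cooler temperature. At 18 °C its 24 libraries ran from 21.4 through a median of 26.3 to 29.1 CPM, and at 25 °C from 29.9 through 36.4 to 41.7 CPM. The 2 groups did not overlap, which was so for 4.64% of all genes. The means were 26.3 ± 1.66 and 36.4 ± 2.88 CPM (SD, n = 24 each), and the log2 difference was -0.47 ± 0.03 (SE) with an edgeR adjusted p of 2.29e-24. phr was lower at 18 °C at each of the 12 time points. In whole heads, fewer cells of a type and less RNA per cell cannot be told apart.

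phr6-4 fell at 18 °C too. Its libraries ran from 0.82 through a median of 1.33 to 2.25 CPM at 18 °C and from 0.763 through 1.85 to 2.41 CPM at 25 °C, and these groups overlapped. The means were 1.40 ± 0.359 and 1.82 ± 0.421 CPM (SD, n = 24 each), with a log2 difference of -0.37 ± 0.09 (SE) and an edgeR adjusted p of 0.000353. It was lower at 18 °C at 11 of 12 time points. Without replicate 1 the difference was -0.25 with an adjusted p of 0.112. cry changed by a smaller amount, -0.10 ± 0.03, from 147 ± 14.8 to 137 ± 8.20 CPM (SD, n = 24 each), with an adjusted p of 0.00242, and its libraries overlapped. Without replicate 2 the edgeR adjusted p of cry was 0.153. All 3 genes were thus called lower at 18 °C, where 66.8% of all genes were called and 34.1% were called lower, so that the direction they shared was common in this comparison.

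**Figure D3:**
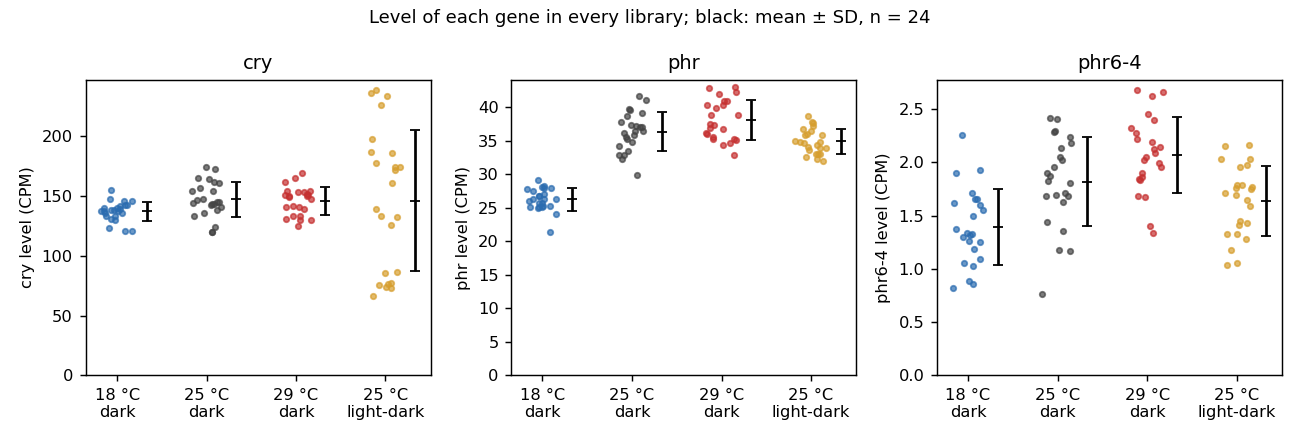
Level in CPM of cry, phr and phr6-4 in the 4 conditions; each point is a library, and the marker with its bar is the mean with SD over 24 libraries. The phr libraries at 18 °C, at most 29.1 CPM, lie below every phr library at 25 °C or 29 °C in darkness.

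From 25 °C to 29 °C none of the 3 genes was called in the main edgeR fit, where 26.8% of all genes were. phr averaged 38.1 ± 3.0 CPM at 29 °C (SD, n = 24), with a log2 difference of 0.07 ± 0.03 and an adjusted p of 0.0957. phr6-4 averaged 2.07 ± 0.356 CPM, with a difference of 0.19 ± 0.09 and an adjusted p of 0.111. For cry the difference was -0.01 ± 0.03, with an adjusted p of 0.848. The unadjusted p was under 0.05 for 2 of the 3, phr and phr6-4, and DESeq2 called 0. phr was called in edgeR when the model held a replicate block (0.07, adjusted p = 0.0265) or a matched replicate block (0.07, adjusted p = 0.0154). It was also called with 2 residual components as covariates, an alternative chosen after seeing the data (0.07, edgeR adjusted p = 0.0285).

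The largest temperature step, from 18 °C to 29 °C, was called for all 3 genes, in a comparison where 74.5% of all genes were called and 38% were called higher at 29 °C. phr was higher at 29 °C by 0.54 ± 0.03 (log2, SE; adjusted p = 2.58e-28 in edgeR), with no overlap between its 24 and 24 libraries, as for 11.1% of all genes. phr6-4 was higher by 0.57 ± 0.09 (adjusted p = 8.55e-08), at 12 of 12 time points. cry was higher by 0.09 ± 0.03 (adjusted p = 0.00514), and this call was lost without replicate 1 or without replicate 2, with edgeR adjusted p of 0.0526 and 0.0945. The 3 comparisons of temperature share their control and end groups and are not independent of each other.

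Between day 5 and day 4 no member was called in any condition by edgeR or DESeq2, where 2.21%, 2.71%, 0.29% and 0.168% of all genes were called at 18 °C, 25 °C, 29 °C and in the light-dark cycle. The unadjusted p was under 0.05 for 1 value, that of cry in darkness at 25 °C, which was lower on day 5 by -0.09 ± 0.04 (log2, SE; adjusted p = 0.249 in edgeR).

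The exons of cry overlap those of another gene on the same strand. Of its 1896 exon bases, 329 are shared with the non-coding gene lncRNA:CR46393 (FBgn0286871, 3R, 19212154 to 19212727), and 9 with vib on the opposite strand. lncRNA:CR46393 averaged 13.7 ± 1.93 CPM in darkness at 25 °C (SD, n = 24), and reads in the shared stretch could have been divided between both genes in the counting. When the counts of both were summed, the amplitude was 0.86 in the light-dark cycle and 0.17 in darkness at 25 °C, as for cry alone. The sum could hardly have moved it, since cry averaged 147 CPM in darkness at 25 °C and the 2 genes ran alike (r = 0.98). It does not show how the shared reads were divided. phr shares 17 of its 1969 exon bases with Prosalpha1 on the opposite strand, and phr6-4 shares 0 of its 2167.

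The timing of cry was set beside that of the clock genes. CLK and CYC activate per, tim, vri, Pdp1 and cwo, and VRI and PDP1 are known to act on transcription of Clk. In the light-dark cycle the fitted curve of Clk peaked at hour 1.64 ± 0.259 (SE) and that of cry at hour 5.11, whereas cwo, vri, per, Pdp1 and tim peaked between hours 13.8 and 15.4. The amplitude of cry was above those of cwo (0.39 ± 0.03) and Pdp1 (0.67 ± 0.04), and below those of Clk (0.99 ± 0.07), per (1.25 ± 0.07), vri (1.45 ± 0.05) and tim (1.67 ± 0.09). In darkness at 25 °C per (0.45 ± 0.07), vri (0.26 ± 0.04) and cwo (0.17 ± 0.03) were called beside cry. cyc, the constant partner of Clk, was called in no condition by edgeR.

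**Figure D4:**
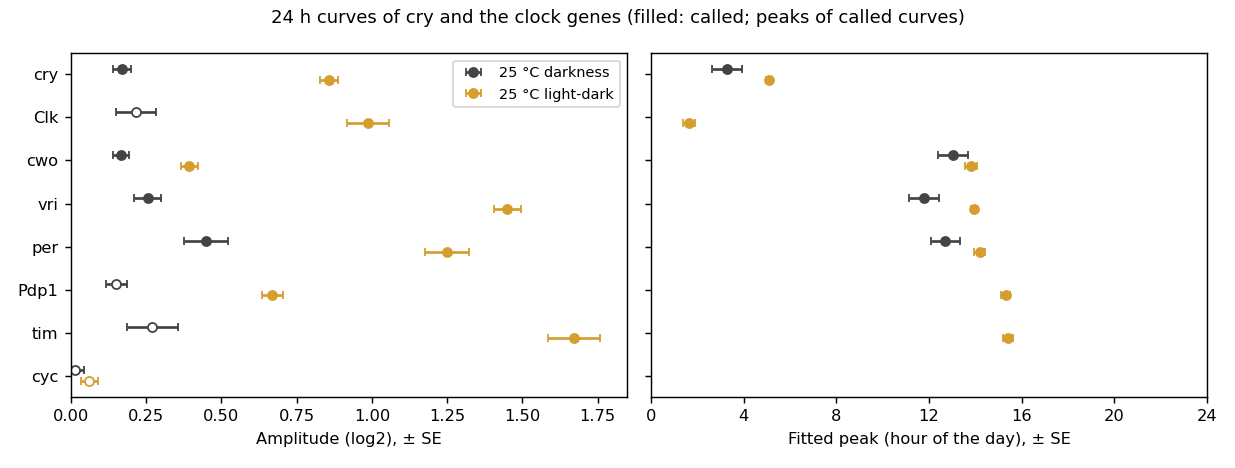
Amplitude (left, log2) and fitted peak hour (right) of cry and 7 clock genes at 25 °C in darkness and in the light-dark cycle, with bars of 1 SE; filled points were called, and peaks are drawn for called curves. The amplitude of cry is 0.17 in darkness and 0.86 in the light-dark cycle, and its peak at hour 5.11 lies nearest to that of Clk.

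Genes whose course was most like each member were named from the Pearson correlation of mean log2 CPM over the 48 combinations of condition, day and hour, among 8380 genes with a mean of at least 5 CPM (8381 for phr6-4). These points share libraries and conditions, and the correlations are descriptions without a test. The closest to cry were lncRNA:CR46393 (r = 0.98), which shares its exons, then GV1 (0.844), IP3K1 (0.804), Alp4 (0.75) and CG9521 (0.749). Within the 12 points of the light-dark cycle the closest after lncRNA:CR46393 were Cyp305a1 (0.968), Tat (0.962), CG46317 (0.96) and GV1 (0.954). For phr the 5 closest over 48 points were Sps1, CG42446, CG7607, Sry-delta and CG17931, each with r between 0.965 and 0.967. For phr6-4 the highest correlations were lower, from 0.746 for Ssrp to 0.733 for Dbp45A, with Not10, bdwf and CG10366 between them.

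Proteins that pass light from CRY and the eye to the clock were taken as a list of 10 genes. At 18 °C 7 of the 10 were called against 25 °C, 1 higher and 6 lower. The list median was -0.10, beside -0.0035 over all genes. Of all genes 66.8% were called, so the total of 7 of 10 is near the background. The 6 of 10 called lower stand beside 34.1% of all genes, and the list was not tested as a set. norpA, the phospholipase C of rhodopsin signalling, fell by 0.66 ± 0.12 (log2, SE; adjusted p = 1.1e-06 in edgeR). tim, whose protein CRY binds in light, fell by 0.47 ± 0.08, and Rh7, a rhodopsin, fell by 0.30 ± 0.06. jet, which encodes the F-box protein that targets TIM after light, fell by 0.27 ± 0.04. qsm, a gene of clock light input, rose by 0.23 ± 0.03 and was the single gene of the list to do so. At 29 °C 0 of the 10 were called against 25 °C in edgeR and in DESeq2, with 1 at an unadjusted p under 0.05, beside 26.8% of all genes called. On the log scale tim and jet were lower in light-dark heads, with differences of -0.22 ± 0.08 and -0.14 ± 0.04. The other 8 were not called, beside 22.8% of all genes called. The fitted amplitude of tim was 1.67 in the light-dark cycle and 0.27 in darkness at 25 °C, so its linear mean need not be lower, and it was not compared. Without replicate 1 none of the 10 was called, and without replicate 2 the number was 1. A daily curve in the light-dark cycle was called in edgeR for tim and for qsm among the 10, and DESeq2 called 2, beside 14.2% of all genes in edgeR. The curve of qsm had an amplitude of 0.32 and a peak at hour 1.05.

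All 6 photoreceptor markers were called lower at 18 °C than at 25 °C in darkness, as were cry, phr and phr6-4. In that comparison 66.8% of all genes were called and 34.1% were called lower. The differences ran from ninaC at -0.27 ± 0.11 to trp at -0.99 ± 0.11 (log2, SE). The libraries' summed level ran from 31121 to 61382.1 CPM at 18 °C and from 45567.8 to 77486.3 CPM at 25 °C. Of the 4 glial markers, 3 were higher at 18 °C, and their sum had a median of 2368.6 CPM against 1956.5 CPM. Of the 4 neuronal markers 1 was higher and 3 were lower there, and of the 4 head fat body markers 1 was higher. Under light-dark conditions ninaE alone of the 6 was called against darkness, at -0.83 ± 0.09, beside the lower log-scale mean of cry. Of all genes, 22.8% were called there. In that comparison 3 of the 4 glial and 2 of the 4 head fat body markers were called higher, and 1 of the 4 neuronal markers was called lower. The part of these markers in the levels of cry, phr, phr6-4 and norpA was not tested.

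The other DNA repair routes were read from 4 lists, since photolyases share their lesions with nucleotide excision repair and translesion polymerases. Of 14 nucleotide excision repair genes, 10 were called at 18 °C against 25 °C, 3 higher and 7 lower, with a median of -0.05. This share was close to the 66.8% of all genes called in that comparison, and without replicate 2 the split was 1 higher and 6 lower. Tfb5, Ssl1 and Tfb4, subunits of the TFIIH complex that opens DNA at a lesion, fell by 0.48 ± 0.03, 0.36 ± 0.03 and 0.36 ± 0.07 (log2, SE). Xpac, which verifies the damage, fell by 0.46 ± 0.04. At 29 °C against 25 °C 8 were called, 7 higher and 1 lower, with a median of 0.09 beside 0.00079 over all genes, and Tfb4 (0.25 ± 0.07), Tfb5 (0.21 ± 0.03) and Ssl1 (0.18 ± 0.03) led them. Without replicate 2 there were 3 higher and 0 lower. Of all genes, 26.8% were called there and 13.8% were called higher. Against darkness, 1 of the 14 was called in light-dark heads, beside 22.8% of all genes.

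Of 5 translesion polymerase genes, all were called at 18 °C against 25 °C, 3 higher and 2 lower, where 66.8% of all genes were called. Rev1 fell by 0.39 ± 0.03 and PolZ1, the catalytic subunit of polymerase zeta, rose by 0.35 ± 0.04. Of 7 base excision repair genes, all were called, in the same comparison and against the same 66.8%, 4 higher and 3 lower, and their median was 0.26 on the log2 scale. Fen1, the flap endonuclease, rose by 0.43 ± 0.07, Rrp1, the abasic site endonuclease, by 0.37 ± 0.05, and Tdg, a thymine DNA glycosylase, by 0.33 ± 0.04. Of 11 DNA damage signalling and end joining genes, 10 were called there, 4 higher and 6 lower. Ku80 and Irbp, the subunits of the Ku heterodimer, rose by 0.69 ± 0.04 and 0.61 ± 0.04, while nbs fell by 0.61 ± 0.03 and lok, the checkpoint kinase, fell by 0.56 ± 0.05. Between light-dark heads and darkness at 25 °C, 3 of the 5 translesion genes were called, 1 higher and 2 lower. Of the 7 base excision genes 2 were called, 1 higher and 1 lower, and of the 11 signalling genes 6, 1 higher and 5 lower. Of all genes, 22.8% were called in that comparison. In the light-dark cycle 0 of the 14, 0 of the 5 and 0 of the 7 repair genes followed a daily curve in edgeR and in DESeq2, with 2, 1 and 1 at an unadjusted p under 0.05, while 14.2% of all genes were called in edgeR. Of the 11 damage signalling genes, 1 was called in edgeR, lok, with an amplitude of 0.20 and a peak at hour 7.95, and DESeq2 called 2.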

How the data were processed

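RNA was read from 96 libraries of heads, and the authors deposited one table of estimated counts per gene, not normalised. Of its nonzero values, 40.2% were not whole, although whole counts had been assumed in the design, and the values were rounded before each test. Per the submitters' processing notes, fastp 0.23.2, HISAT2 2.2.1 and featureCounts (Subread 2.0.8) were used; the strand setting and genome build are not given in the sources used here, and per the labels' protocols the kit was directional. Symbols and positions came from BDGP6.54, with symbols for 17607 of 17610 identifiers. A quasi-likelihood model in edgeR 4.0.16 (R 4.3.3), with TMM factors and filterByExpr by condition, was fitted to all 96 libraries over 10702 genes. Each condition had its own mean, 24 h sine and cosine terms and day shift (16 columns, 80 residual degrees of freedom), and a second model had a mean per condition and hour (28 columns). A gene was called at an adjusted p under 0.05 (Benjamini-Hochberg, over 10702 genes). Standard errors of curves come from the delta method. DESeq2 1.42.0 was an alternative, and the tests were tried on simulated counts. Genes named were the 3 members, up to 4 called genes per list and level comparison with the largest change, the clock genes, the 5 most alike per member, and genes that overlap a member's exons. The members and lists were chosen with earlier results of these data known.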

Additional observations from a re-analysis of the deposited data

Results flagged for a closer look

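The daily curve of cry differed between the light-dark cycle and constant darkness at 25 °C by 0.71 ± 0.04 (log2, SE; edgeR adjusted p = 1.51e-24), and this difference between the 2 conditions is what singled it out. The amplitudes were 0.86 in the light-dark cycle and 0.17 in darkness, with peaks at hours 5.11 and 3.28.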

How the results depend on the processing

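Across 12 or 13 alternatives per value, the light-dark curve of cry, its difference from darkness and the calls of phr at 18 °C against 25 and 29 °C kept their direction and their side of the threshold. The number of members called between 29 and 25 °C rose from 0 to 1 (phr) with the replicate block (adjusted p = 0.0265), with the matched replicate block (adjusted p = 0.0154) and with 2 residual components as covariates, an alternative chosen after seeing the data. Between light-dark and darkness the number went from 1 to 0 on day 5 alone and to 2 with the matched replicate block (phr at -0.06, adjusted p = 0.0451), and ranged from 0 to 1 when 1 replicate was left out. For the curve in darkness at 25 °C it was 0 when either replicate was left out and 0 on day 4 or day 5 alone. For the curve at 29 °C it rose to 1 (cry) with hour as a factor, with the replicate block (adjusted p = 0.0427), with the fit of a single condition, with DESeq2 and with the residual components. It stayed at 0 when either replicate was left out and on day 4 or day 5 alone. At hour 8 it was 0 on day 4 alone and 0 to 1 when 1 replicate was left out. On day 5 alone the cry calls at 18 °C against 25 °C (-0.04, adjusted p = 0.493) and against 29 °C (0.07, adjusted p = 0.165) were lost. The cause of these changes was not tested. Fits without a day or a replicate also hold fewer libraries.

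Reversals touched uncalled values only. For cry between 29 and 25 °C the log2 difference was -0.0351 without replicate 1, 0.0097 without replicate 2 and 0.0313 on day 5, and at hour 12 it was 0.0024 on day 5. Between days and without replicates 1 and 2 in turn, phr gave -0.0692 and 0.0156 at 18 °C, -0.1067 and 0.0461 in darkness at 25 °C, 0.0074 and -0.0213 at 29 °C, and -0.0579 and 0.0076 under light-dark, and phr6-4 gave 0.0738 and -0.0018 in darkness at 25 °C. Between light-dark and darkness, likewise, phr gave 0.0347 and -0.108 at hour 0 (0.068 on day 5), 0.0151 and -0.0898 at hour 8 (0.0209 on day 4), and 0.0032 and -0.0965 at hour 16. phr6-4 gave 0.0666 and -0.514 at hour 12, and -0.0092 at hour 16 on day 5.

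Residuals of libraries sharing day, hour and replicate number correlated by -0.187 to 0.684 (median 0.267), above 0.1 in 123 of 144 pairs. The own number matched best in 33. The main fit held no pairing, as the labels name none. The replicate block changed no member's call other than those named. The counts of genes called over the whole table ranged from 799 to 4539 (2864 in the main fit) between 29 and 25 °C, from 568 to 4184 (2440) between light-dark and darkness, from 582 to 3534 (1520) for the light-dark curve, from 0 to 1050 (47) for the curve at 25 °C in darkness, from 0 to 986 (15) at 29 °C and from 0 to 892 (21) at 18 °C, with the highest counts under the residual components. The difference of curves gave 120 to 1688 genes (563) between light-dark and darkness, 0 to 171 (10) between 18 and 25 °C, 0 to 93 (13) between 29 and 18 °C and 0 to 6 (0) between 29 and 25 °C. Between days the counts were 39 to 438 (237) at 18 °C, 0 to 27 (18) under light-dark, 2 to 46 (31) at 29 °C and 8 to 2193 (290) in darkness at 25 °C. By hour they were 4 to 260 (124) at hour 0, 30 to 694 (309) at hour 4, 20 to 1068 (298) at hour 8, 61 to 986 (544) at hour 12, 48 to 1360 (508) at hour 16 and 74 to 1408 (702) at hour 20. Counting error was largest for phr6-4, with 14 to 78 counts per library.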
